A study of Rattus norvegicus with 6 samples.

Results

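The BCL2 family sets whether a cell keeps its mitochondria sealed or opens them to start apoptosis, and it was followed here through 10 member genes in rat aortic smooth muscle cells under fluid shear stress. Members were taken as every probe set of the array that the platform annotation pairs with 1 gene symbol, that symbol being Bcl2, Bcl2l1, Mcl1, Bcl2a1, Bax, Bak1, Bad, Bid, Bcl2l11 or Bbc3. This gave 15 probe sets for 9 genes, out of 31042 probe sets besides controls and 14217 genes with such a probe set. The probe set that reads Bax is annotated to a second locus as well, so Bax has no value of its own. Of the 15, 13 passed the filter on low values and were tested, and 1 probe set each of Bcl2a1 and Bcl2l1 fell below it.

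The study compared 3 static cultures with 3 cultures sheared at 14 dyn per square centimetre for 24 h, each static sample sharing a pairing number from 1 to 3 with a sheared one. Both groups were unmodified vascular smooth muscle cells from rat aorta at passage 3 to 5, grown with 10% fetal calf serum and then kept for 24 h with 0.1% albumin in its place. Sheared monolayers lay in a parallel-plate chamber with laminar flow driven by the height between a pair of reservoirs, so anything else that differs between chamber and dish goes with the group. Strain, sex and age of the rats, and what a pair shared, are not given in the labels, so p-values speak only to the spread among these cultures, part of which may be technical.

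Members of the family act through protein contacts at the outer mitochondrial membrane. Survival proteins (Bcl2, Bcl2l1 or BCL-XL, Mcl1 and Bcl2a1) hold the pore-forming effectors Bax and Bak1 in check, and the BH3-only proteins (Bad, Bid, Bcl2l11 or BIM, and Bbc3 or PUMA) are sensors that neutralise survival proteins or activate the effectors. Much of this control is exerted on the proteins, by cleavage, phosphorylation and turnover, which an array of transcripts does not read. In the vessel wall, smooth muscle cell death is part of normal remodelling and of plaque and aneurysm disease.

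Expression is given as MAS5 signal, the linear intensity the authors deposited for each probe set, on arrays already scaled to each other. Changes are on the log2(signal + 16) scale, shear minus static, from 1 limma fit over 21729 probe sets with the pair as a block, and a probe set passed at an adjusted p under 0.05. Array medians were 21.1 to 22.6 in static and 17.3 to 18.9 in sheared arrays, so every sheared median lay below every static one. This shift goes with the group, and results after median centring are given where a call changed. Signals at or under the range of 17.3 to 22.6 are dim, and their changes are understated on this scale. Arrays correlated at 0.980 or above within each group and at 0.882 to 0.906 between groups. Shear array 1 stood apart from shear arrays 2 and 3 on the second principal component (6.28% of the variance), and results that rest on it are given without pair 1. Of 8 smooth muscle markers all were tested, among them Tagln (2684 ± 284 static, 2815 ± 93.3 shear; SD, n = 3), Cald1 (3063 ± 194 and 1622 ± 102) and Acta2 (1811 ± 157 and 836 ± 89.1), and 6 of the 8 fell. Over all genes tested, by brightest probe set, 30.1% fell. The smooth muscle markers summed to 7895 to 8885 in static and 5588 to 5648 in sheared cells. Fibroblast markers were also bright, summing to 5328 to 7767 in static and 4339 to 7325 in sheared cells. Of 7 endothelial markers on the array 4 lay below the filter, and their summed signal was 179.7 to 194.5 in static and 127.4 to 153.9 in sheared cells. The 3′ to 5′ log2 ratio of the beta-actin control averaged 0.255 ± 0.036 over static arrays and 0.393 ± 0.0281 over sheared ones (SD, n = 3; two-sided exact permutation p = 0.1, the smallest possible), and for Gapdh 0.166 ± 0.00969 and 0.156 ± 0.00621 (exact permutation p = 0.3). The part of RNA quality in the changes described was not tested. In these bulk samples, fewer cells that make a transcript and less of it per cell cannot be told apart.

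By gene, taking the brightest probe set of each, 4 of the 8 tested members rose under shear, 3 fell and Bcl2l1 did not pass. Over all genes tested the same rule called 57.9% (27.8% risen, 30.1% fallen), and over all probe sets 52.8% (24.3% risen, 28.5% fallen), so a called member is no rarity here. Among survival members Mcl1 rose and Bcl2 fell. Among death members Bid, Bak1 and Bcl2l11 rose, while Bad and Bbc3 fell. The median change was -0.28 over 3 survival genes and 0.94 over 5 death genes, beside -0.053 over all 11248 genes tested. Not counted are Bcl2l2, a survival gene outside the 10 members (1.50), and the probe set shared by Bax and a second locus (-0.55). Each lay on the other side of 0 from the median of its class. Bcl2l12, a family gene that restrains apoptosis, is also not counted and lay on the same side as the survival median (-0.86). The effector Bok, not counted either, did not pass and lay opposite to the death median (-0.28). Counting the 13 probe sets, 7 rose, 3 fell and 3 did not pass, and sheared and static arrays did not overlap for 10, beside 60.0% of all probe sets tested. The lowest and highest members in the 2 classes overlapped, from -0.49 for Bcl2 to 0.71 for Mcl1 among survival genes and from -0.64 for Bbc3 to 2.40 for Bid among death genes.

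**Figure D1:**
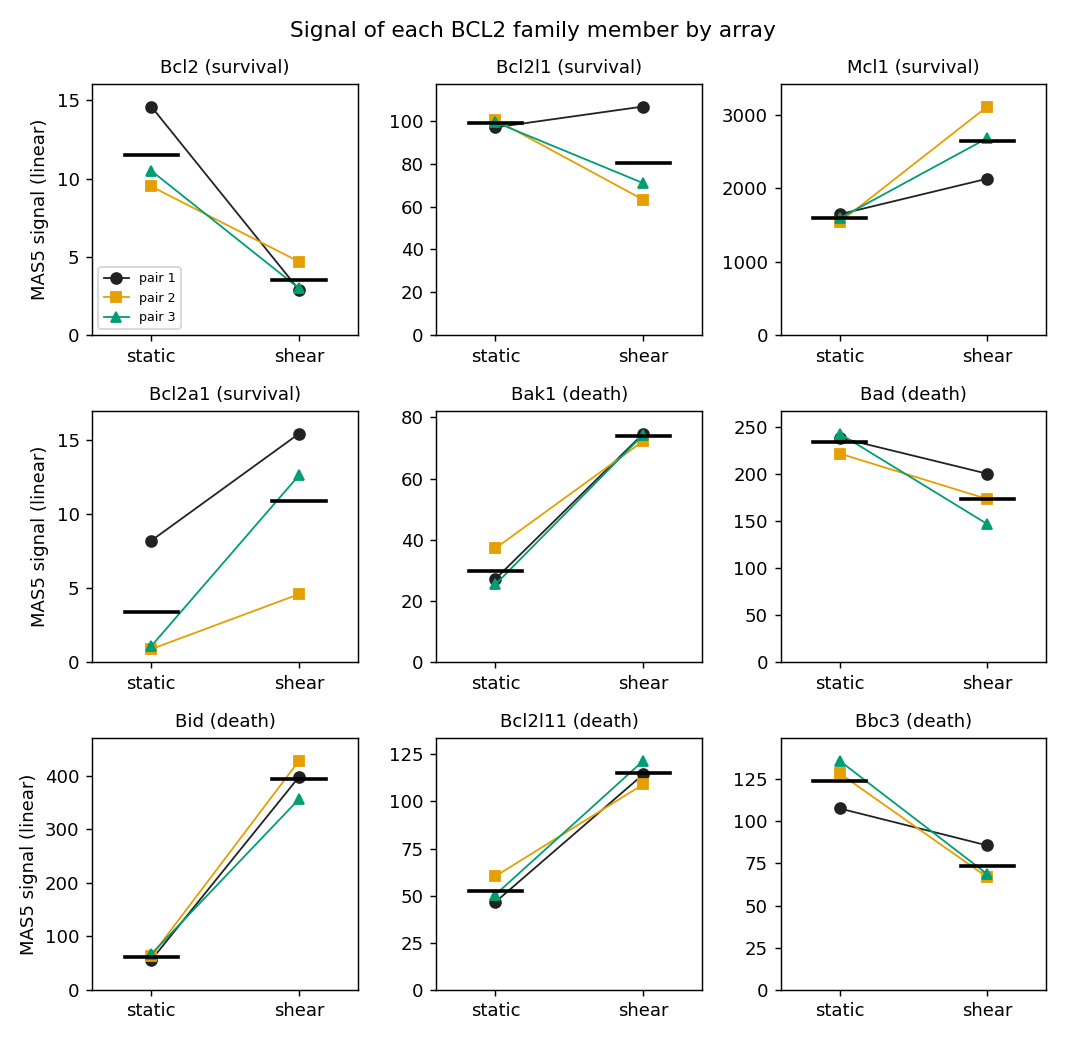
Signal of the brightest probe set of each of 9 member genes on each array (linear MAS5 signal from 0, static on the left and shear on the right of each panel, lines join pairs, black bars are group means). Bid, Bak1, Bcl2l11 and Mcl1 are higher in every sheared array, Bad, Bbc3 and Bcl2 lower in every sheared array, and Bcl2l1 splits by pair.

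The upstream windows of the 4 genes that rose are shown here because these members moved the same way. RefSeq's promoter table (build GRCr8) held 11 windows for 8 of the 10 members. Each window below is the 250 bases before the start that the table uses, 5′ to 3′ on the gene's strand, with capitals marking any match to the motifs searched. For Bid, Mcl1 and Bak1 this window lies inside the span the gene table gives to the gene, so other transcripts may begin upstream of it.
Bid, chr4:155808320-155808569, - strand: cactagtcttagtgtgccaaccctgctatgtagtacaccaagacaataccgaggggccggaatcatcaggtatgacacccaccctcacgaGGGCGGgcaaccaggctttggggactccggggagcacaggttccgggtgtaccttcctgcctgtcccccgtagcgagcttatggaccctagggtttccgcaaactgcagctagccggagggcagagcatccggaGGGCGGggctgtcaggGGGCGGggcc
Bak1, chr20:5110975-5111224, - strand: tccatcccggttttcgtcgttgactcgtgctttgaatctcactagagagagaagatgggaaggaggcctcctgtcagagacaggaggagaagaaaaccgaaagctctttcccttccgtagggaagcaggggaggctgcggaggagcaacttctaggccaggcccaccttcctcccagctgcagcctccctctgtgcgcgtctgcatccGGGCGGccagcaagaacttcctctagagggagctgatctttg
Bcl2l11, chr3:135819792-135820041, + strand: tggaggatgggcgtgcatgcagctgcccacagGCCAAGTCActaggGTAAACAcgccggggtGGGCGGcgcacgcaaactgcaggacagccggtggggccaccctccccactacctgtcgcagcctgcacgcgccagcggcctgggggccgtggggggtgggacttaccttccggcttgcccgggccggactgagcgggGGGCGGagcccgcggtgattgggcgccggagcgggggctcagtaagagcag
Mcl1, chr2:185907918-185908167, + strand: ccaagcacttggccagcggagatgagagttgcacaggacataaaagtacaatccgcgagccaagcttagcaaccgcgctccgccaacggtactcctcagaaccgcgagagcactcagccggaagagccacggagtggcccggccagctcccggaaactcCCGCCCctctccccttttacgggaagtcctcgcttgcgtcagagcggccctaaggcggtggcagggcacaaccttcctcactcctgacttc

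The motifs were searched on both strands: the GC box GGGCGG, the AP-1 site TGANTCA, the antioxidant response element TGACNNNGC, the cyclic AMP response element TGACGTCA, the FOXO site GTAAACA, the E-box CACGTG, the TATA box TATAAA and the CArG box. None of the letter strings shared bases with another in these windows. A GC box was present in all 4 of these windows, with 3 matches for Bid, 2 for Bcl2l11 and 1 each for Bak1 and Mcl1, and 30.5% of the 33469 windows in the table hold one. These 4 windows were richer in G and C (62.8% for Bid, 57.6% for Bak1, 72.0% for Bcl2l11 and 62.0% for Mcl1) than the median window of the table (51.2%). Among windows of the other members, Bad (52.4%) and Bcl2l1 windows at 57.6% and 60.0% also exceeded that median. Bcl2l1 windows at 51.2% and 41.2%, Bcl2a1 (48.8%) and Bcl2 (33.6%) did not. No GC box was found in the windows of Bad, Bcl2, Bcl2a1 or any of the 4 for Bcl2l1, while Bax and Bbc3 have no window in the table. The Bad window, and those for Bcl2l1 apart from the one at 57.6%, also lie inside the span of their gene. The Bcl2l11 window also held a FOXO site, 204 bases before the start (3.21% of windows hold one), and an antioxidant response element 218 bases before it (10.1% of windows). Other matches were a FOXO site for Bad, an antioxidant response element in 1 Bcl2l1 window, an AP-1 site for Bcl2a1 (6.34% of windows) and a TATA box for Bcl2 (12.9%). These are matches of letters and do not show that a factor binds. Of the members whose windows lack a GC box, only Bad and Bcl2 were called fallen. The 30.5% is not matched for G and C content, and a link between the GC box and a rise was not tested.

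Mcl1, a short-lived survival protein that binds Bak1 and some of the BH3-only proteins, was the survival member that rose. Its brighter probe set (1372520_at) read 1648.4, 1541.6 and 1593.9 in static arrays 1 to 3 and 2133.5, 3115.9 and 2685.9 under shear. Every sheared array lay above every static one, and shear array 1 was the lowest of the sheared. The change was 0.71 (95% interval 0.45 to 0.96, adjusted p = 0.0011), a ratio of means of 1.66. The other Mcl1 probe set (1370141_at) read 422.9, 445.5 and 489.5 in static and 867.2, 1202.6 and 1131.7 in sheared cells, again with no overlap. It rose by 1.20 (0.98 to 1.42, adjusted p = 3.8e-05). Both passed under every alternative run, from 0.56 to 0.88 for the first and from 1.10 to 1.35 for the other.

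Bcl2, the founding survival gene of the family, was dim throughout. It read 14.6, 9.5 and 10.5 in static arrays 1 to 3 and 2.9, 4.7 and 3.0 under shear. No sheared array reached the lowest static one, but all 6 values lay under the median of their array. The filter limit equals a signal of 6.69, and every static value lay above it and every sheared value below. With a mean of 4.53 on the log2 scale against a limit of 4.50, Bcl2 thus passed the filter through its static arrays. The fitted change was -0.49 (-0.83 to -0.16, adjusted p = 0.022), while the means of 11.5 ± 2.70 and 3.53 ± 1.01 (SD, n = 3) stood in a ratio of 3.26. With a pseudocount of 1 the change was -1.47. The call was lost after quantile normalization (-0.40, adjusted p = 0.058), after median centring (-0.34, adjusted p = 0.090), without pair 1 (-0.39, adjusted p = 0.095) and without pair 3 (-0.50, adjusted p = 0.081).

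Bcl2l1 encodes the long survival protein BCL-XL and, through another splice form, a short one that promotes death. Its brightest probe set (1370812_at) read 96.9, 100.4 and 99.3 in static arrays 1 to 3 and 106.6, 63.2 and 70.9 under shear. Static values lay close together, and shear array 1 was above all of them while shear arrays 2 and 3 were below. The change of -0.28 (-0.63 to 0.07) did not pass (adjusted p = 0.15). Without pair 1, whose shear array stood apart, it was -0.48 and passed (adjusted p = 0.0012), as did the probe set 1370485_a_at (-0.44, adjusted p = 0.030), in fits that keep 2 pairs. With all pairs the latter was at -0.15 (adjusted p = 0.56), from 13.9, 26.8 and 20.8 in static to 24.3, 12.7 and 13.9 in sheared cells. The Bcl2l1 probe set below the filter (1369180_at) read 8.0, 9.3 and 7.3 in static and 4.4, 5.2 and 4.8 in sheared cells. The files do not say which splice form each probe set reads.

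Bcl2a1, a survival gene best known from leukocytes and as a target of NF-kappaB, was close to the floor. It read 8.2, 0.9 and 1.1 in static arrays 1 to 3 and 15.4, 4.6 and 12.6 under shear. Each sheared array was above its own partner, but the groups overlapped. Its mean of 4.49 on the log2 scale was just under the limit of 4.50, so it was not tested. The change was 0.47. The static mean of 3.40 lay under the limit of 6.69 in signal, and the sheared mean of 10.9 above it. Where a filter is kept, Bcl2a1 would thus enter through the group in which it was higher. Under the alternatives that admitted it, it passed as risen: quantile normalization (0.55, adjusted p = 0.017), no filter (0.47, adjusted p = 0.031), a pseudocount of 64 (0.15, adjusted p = 0.034), without pair 2 (0.56, adjusted p = 0.036) and the fit on probe set means per gene (0.47, adjusted p = 0.031). Of 9 leukocyte markers on the array, 3 lay below the filter, 2 rose, 1 fell and 3 did not pass. Their summed signal was 213.6 to 261.3 in static and 162.3 to 208.5 in sheared cells, and 0 of the 9 were at 0 on every array. Cd14 alone (148.8 to 200.9 in static and 81.9 to 122.8 in sheared arrays) was the larger part of that sum. The lower sum under shear thus follows Cd14 and does not speak for the other markers. Of the brightest, Cd14 fell (182 to 108, -0.68) and Cd68 rose (10.1 to 25.8, 0.70), while Itgb2 did not pass (0.19, adjusted p = 0.29). The part of such cells in the Bcl2a1 signal was not tested.

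Bak1, an effector that forms pores in the outer mitochondrial membrane, rose. It read 27.3, 37.3 and 25.5 in static arrays 1 to 3 and 74.7, 72.3 and 74.4 under shear. The sheared values were nearly equal and all lay well above the highest static one. The change was 0.97 (0.67 to 1.27, adjusted p = 0.00047), a ratio of means of 2.46. It passed under every alternative, from 0.55 with a pseudocount of 64 to 1.29 with one of 1.

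Bid, the BH3-only protein that caspases cleave to carry a death-receptor signal to mitochondria, changed most of all members. Its brighter probe set (1377759_at) read 55.4, 62.9 and 66.4 in static arrays 1 to 3 and 398.1, 428.1 and 356.6 under shear. The lowest sheared array was several times the highest static one. The change was 2.40 (2.13 to 2.67, adjusted p = 5e-06), a ratio of means of 6.40. The dimmer probe set (1369683_at) read 19.6, 25.3 and 13.2 in static and 187.5, 182.2 and 149.8 in sheared cells. It rose by 2.43 (2.16 to 2.70, adjusted p = 5e-06), with a ratio of 8.94. On this scale the 2 probe sets gave much the same change, with pairs between 2.18 and 2.54, but the size depends on the pseudocount. With a pseudocount of 64 the dimmer one was at 1.51 and the brighter at 1.87, and with one of 1 at 3.13 and 2.66. Risen probe sets with a change of at least 1 made up 5.96% of all tested.

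Bcl2l11, or BIM, a BH3-only protein that binds all survival proteins and is raised when growth factors are withdrawn, rose on 2 of its 3 probe sets. The brightest (1388742_at) read 46.6, 60.3 and 50.5 in static arrays 1 to 3 and 114.4, 109.1 and 121.6 under shear, with no overlap. Its change was 0.94 (0.66 to 1.23, adjusted p = 0.00044). The probe set 1387338_s_at went from 6.5, 5.7 and 8.2 to 13.8, 24.3 and 17.5, with every static value dim, and rose by 0.59 (0.24 to 0.94, adjusted p = 0.012). That call was lost without pair 2 (0.44, adjusted p = 0.077). The third (1370787_at) did not pass, at 27.3, 26.2 and 25.1 in static and 28.1, 18.3 and 24.4 in sheared cells (-0.10, -0.40 to 0.20, adjusted p = 0.55). The gene makes several splice forms, and which of them each probe set reads is not given in the files.

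Bad and Bbc3 were the BH3-only members that fell. Bad, which phosphorylation by survival kinases keeps inactive, read 238.3, 221.5 and 242.6 in static arrays 1 to 3 and 200.1, 173.3 and 146.7 under shear. All sheared values lay below all static ones, and pair 3 showed the widest gap. The change was -0.41 (-0.69 to -0.14, adjusted p = 0.020). It did not pass after median centring (-0.26, adjusted p = 0.096), without pair 2 (-0.45, adjusted p = 0.068) or without pair 3 (-0.28, adjusted p = 0.21). Bbc3, or PUMA, a BH3-only protein that binds the survival members, read 107.7, 128.5 and 136.0 in static and 85.7, 66.8 and 68.6 in sheared cells. Shear array 1 was the highest of the sheared arrays and still below every static one. The change was -0.64 (-0.97 to -0.32, adjusted p = 0.0059), and it passed under every alternative, from -0.82 without pair 1 to -0.45 with a pseudocount of 64.

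**Figure D2:**
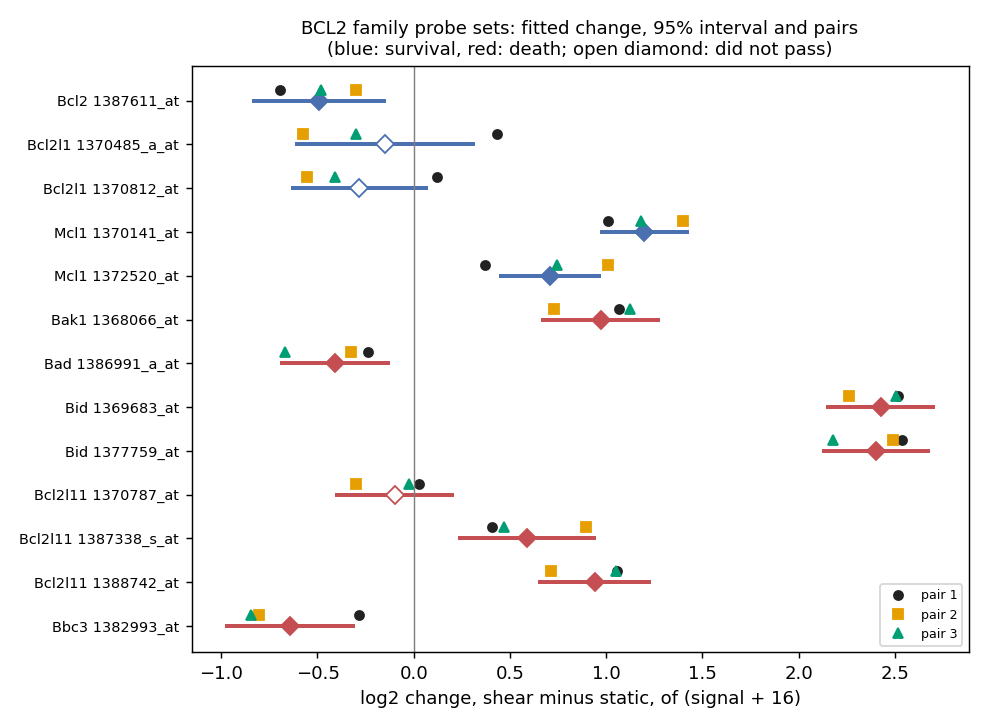
Change of each of the 13 tested probe sets on the log2(signal + 16) scale (x axis, shear minus static). Diamonds and bars are the fitted change and its 95% interval, filled where the probe set passed, and small symbols are the 3 pairs. Both Bid probe sets lie at about 2.4, Mcl1, Bak1 and 2 Bcl2l11 probe sets lie above 0, and Bcl2, Bad and Bbc3 lie below 0.

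Setting survival beside death members, the medians in pairs 1 to 3 were 0.12, -0.30 and -0.41 for the 3 survival genes and 1.06, 0.71 and 1.05 for the 5 death genes. The order was the same in each pair. It rests on few genes, and with Bcl2a1 admitted the survival median turned positive after quantile normalization (0.19, death genes 1.04), with no filter (0.093, death genes 0.94) and without pair 2 (0.21, death genes 1.05). With a pseudocount of 64, which also admits Bcl2a1, it was -0.005 (death genes 0.55). With the lowest 50% of all probe sets left out only Mcl1 and Bcl2l1 remained on the survival side (median 0.21). As a mean over each gene's probe sets, the medians were 0.13 for 4 survival and 0.48 for 5 death genes. The medians count neither Bcl2l2 (survival, 1.50) nor the probe set shared by Bax (death, -0.55). Each is opposite in sign to its class median in the main fit. They also leave out Bcl2l12 (-0.86), of the same sign as the survival median, and Bok (-0.28, did not pass), opposite to the death median. No test was made of the difference between the classes.

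Other genes of the family were looked at from a list of 15, of which 13 had a probe set and 9 were tested: 2 rose, 2 fell and 5 did not pass. Without pair 1, 4 of them rose. The main counts of this list, and of the pathway and regulator lists below, stand beside 27.8% risen and 30.1% fallen over all genes tested. Bcl2l2, or BCL-W, a further survival gene, rose from 96.1, 83.4 and 81.1 in static arrays 1 to 3 to 247.8, 286.5 and 289.0 under shear. The groups were well separated (1.50, 1.22 to 1.78, adjusted p = 4.2e-05), and both of its probe sets rose. Bnip3, a mitochondrial BH3-like protein of mitophagy that hypoxia induces, read 383.3, 365.1 and 400.5 in static and 445.0, 2281.9 and 2020.6 in sheared cells. Shear array 1 was thus near the static level, and the change of 1.70 (0.79 to 2.60, adjusted p = 0.0075) was 0.21, 2.59 and 2.29 in pairs 1 to 3. Without pair 1 it was 2.44, and with robust estimation the call was lost (adjusted p = 0.092).

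Bnip3l, its close relative, split in the same way, from 610.9, 697.9 and 752.3 to 348.6, 961.6 and 829.6. It did not pass (-0.06, adjusted p = 0.82), and without pair 1 it passed as risen (0.30, adjusted p = 0.0016). Bcl2l12, a family protein with a role in restraining apoptosis, fell from 136.9 ± 11.9 to 68.2 ± 4.06 (SD, n = 3; -0.86, adjusted p = 0.00060). Bcl2l14 fell from 31.6 ± 2.96 to 19.0 ± 4.45 (-0.45, adjusted p = 0.016), though it did not pass after either rescaling or when pair 2 or pair 3 was dropped. Bok, an effector related to Bax and Bak1, was at 279.3 ± 47.7 and 225.7 ± 26.0 (-0.28, adjusted p = 0.094), with 1 of its 2 probe sets called fallen. Bnip1 (0.06), Bnip2 (0.17) and Bcl2l10 (-0.20) did not pass, though 1 of the 2 Bnip2 probe sets was called risen. The brightest Bnip2 probe set passed after median centring (0.32) and without pair 1 (0.19). The BH3-only genes Bik, Bmf and Hrk, and Bcl2l15, lay below the filter, with mean signals of 0.733 to 3.80.

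**Figure D3:**
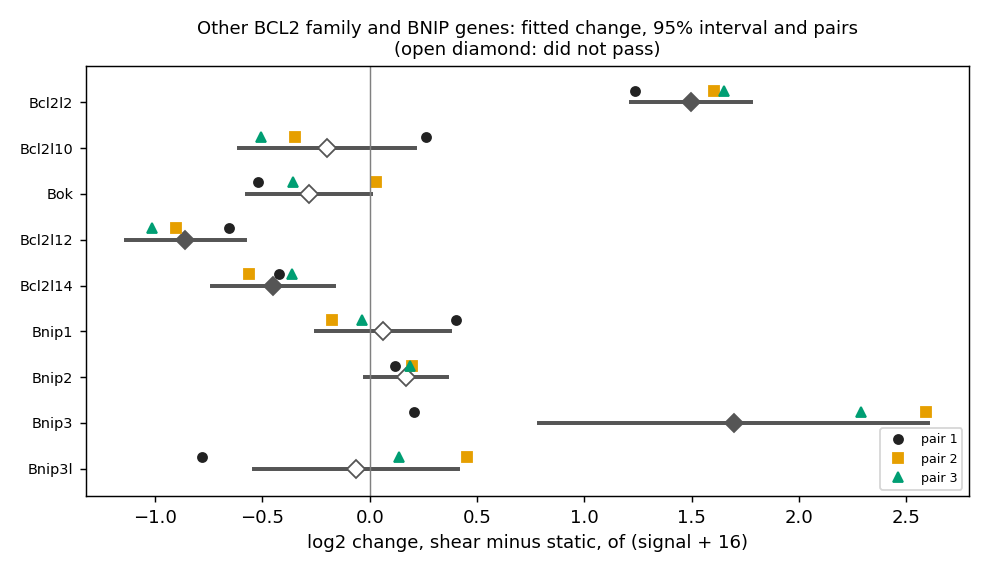
Change of the 9 tested genes among other BCL2 family and BNIP genes on the log2(signal + 16) scale (x axis, shear minus static), by brightest probe set. Diamonds are the fitted change, filled where it passed, bars its 95% interval, and small symbols the 3 pairs. Bcl2l2 lies at 1.50 with its pairs close together, whereas pair 1 of Bnip3 and Bnip3l lies apart from pairs 2 and 3.

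Downstream of the pore, 19 of 22 listed genes of the mitochondrial death pathway were tested: 4 rose, 4 fell and 11 did not pass, with a median of 0.02. The apoptosome protease Casp9 rose from 72.3 ± 3.65 to 118.8 ± 9.84 (SD, n = 3; 0.61, adjusted p = 0.0029), with 2 of its 3 probe sets risen. Diablo, which is released to block inhibitors of caspases, went from 247.1 to 323.5 (0.37, adjusted p = 0.013), and the mitochondrial nuclease Endog from 28.8 to 47.3 (0.50, adjusted p = 0.017). The mitochondrial protease Htra2 fell from 337.0 ± 37.9 to 88.0 ± 19.5 (-1.77, adjusted p = 1e-05), and Birc5, or survivin, a mitotic protein that also restrains caspases, from 238.3 ± 15.3 to 26.0 ± 14.4 (-2.65, adjusted p = 1.2e-05). Aifm1, a flavoprotein of the intermembrane space, fell by 0.38 (adjusted p = 0.014). Without pair 2 or without pair 3 the list had 1 risen and 2 fallen genes, and after median centring 7 risen and 2 fallen. Diablo (0.38 and 0.32), Endog (0.44 and 0.41) and Aifm1 (-0.34 and -0.35) each lost their call when either of these pairs was left out, with changes of much the same size. Aifm1 also did not pass after median centring (-0.23, adjusted p = 0.086), nor Endog with no filter (adjusted p = 0.053). With no filter 2 of the list rose.

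Among regulators that act on these members, 23 of 30 listed genes were tested, with a median of 0.19. Of these, 10 rose, 7 fell and 6 did not pass, beside 27.8% risen and 30.1% fallen over all genes tested. Gsk3b, a kinase that marks Mcl1 for degradation, rose from 122.7 ± 11.5 to 458.4 ± 47.8 (SD, n = 3; 1.77, adjusted p = 7.1e-06). Akt1, a kinase that phosphorylates Bad, fell from 1050 ± 52.4 to 698.4 ± 10.9 (-0.58, adjusted p = 0.00048). Ywhaz, an adaptor that holds phosphorylated Bad in the cytosol, rose from 2250 ± 158 to 3587 ± 235 (0.67, adjusted p = 3.2e-05). Foxo1, of the transcription factor family that can induce Bcl2l11, rose by 1.68 (adjusted p = 4.8e-05), and Rela, a subunit of NF-kappaB, by 1.01 (adjusted p = 0.00016). E2f1, a transcription factor of S-phase entry, fell by 1.73 (adjusted p = 3.4e-05). Other genes of these families went the opposite way: Foxo3 fell by 0.49 (adjusted p = 0.0053), and Nfkb1, another NF-kappaB subunit, by 0.57 (adjusted p = 0.013). Ywhae, an adaptor related to Ywhaz, fell by 0.26 (adjusted p = 0.0088). Of 3 probe sets each, 1 of Foxo3 was called fallen and 2 of Foxo1 were called risen. Foxo3, Nfkb1 and Ywhae lay outside the rule for named genes and were chosen after their values were seen. Each of these calls was lost without pair 2 and without pair 3, and that of Ywhae also after median centring (-0.11, adjusted p = 0.20) and without the intensity trend (adjusted p = 0.076). Without pair 2 or without pair 3, 9 of the list rose and 3 fell. Genes that the rule names from this list all kept their calls under the alternatives run.

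Which settings moved a call is drawn for all tested members at once. The risen probe sets of Bid, Mcl1, Bak1 and the brightest of Bcl2l11, and the fallen one of Bbc3, passed in each setting, 7 of the 10 called in all. The median change of all tested probe sets was -0.067 as deposited, 0.021 after quantile normalization and 0.082 after median centring.

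**Figure D4:**
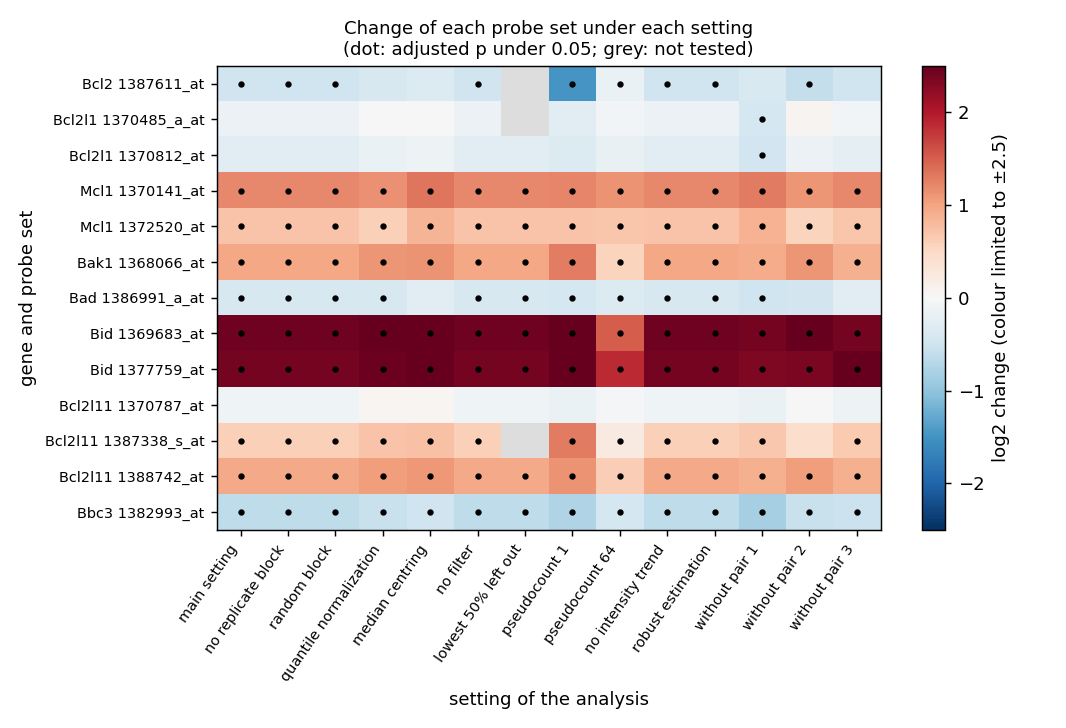
Change of each of the 13 tested probe sets (rows) under the main setting and 13 alternatives (columns), coloured by log2 change with colours limited to ±2.5. Dots mark an adjusted p under 0.05 and grey marks a probe set not tested under that setting. Bid, Mcl1, Bak1 and Bbc3 carry a dot in every column, whereas Bcl2 lacks one in 4 of the 12 alternatives that tested it.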

How the data were processed

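Affymetrix rat arrays measured 3 static and 3 sheared cultures. The authors deposited 1 MAS5 intensity per probe set on a linear scale, per the submitters' processing notes; the MAS5 version and detection calls are not given in the sources used here. Background cannot be separated from low signal here, and precision is limited by the number of arrays. Of 31099 probe sets, 57 controls were left out. The platform annotation gives 1 symbol to 20826, several to 436 and none to 9780. Only the first kind was used for gene names, and 20758 matched the GRCr8 gene table by identifier. The signal plus 16 was log2-transformed, since 0 values occur, and the lowest 30% by mean were dropped. The shear minus static difference was fitted with limma 3.58.1 under R 4.3.3 (lmFit, eBayes with an intensity trend, pairing number as fixed block), two-sided, with Benjamini-Hochberg adjustment over 21729 probe sets. A gene stood as its probe set with the highest mean log2 value.

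The series design calls the experiment paired and the labels give each sample a pairing number, without saying what it marks. Partners' deviations from their group means had correlations of 0.071, 0.065 and 0.063 in pairs 1 to 3. The members, gene lists and tests were chosen with earlier results of these data known. Named genes are all members, all other BCL2 family genes, up to 6 genes that passed by smallest p of the pathway and regulator lists, and the 3 brightest of each marker list. The brightest fibroblast markers were Lum (2494 and 2889, risen only without pair 1, by 0.34), Dcn (1768 and 2350) and Col14a1 (1501 and 575, static and shear means), and of 8 such markers 2 rose (0 without the block) and 4 fell. The brightest endothelial markers were Egfl7 (110.5 and 79.4), Erg (44.1 and 40.6) and Tek (15.8 and 13.9), and of the 3 tested 1 fell. Alternatives were other blocks, scalings, filters, pseudocounts, eBayes options, each pair left out and averaged probe sets per gene. The script was checked on simulated arrays. Promoter windows were read from RefSeq's table. Plots used matplotlib 3.10.9 (Python 3.11.15).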

Additional observations from a re-analysis of the deposited data

How the results depend on the processing

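Of the 10 member probe sets called, 7 kept their call and direction under every alternative in which they were tested. The counts by gene, 1 survival gene risen and 1 fallen, 3 death genes risen and 2 fallen, moved as follows. Risen survival genes numbered 2 after quantile normalization, with no filter, with a pseudocount of 64 and as a mean over probe sets, each time with Bcl2a1 admitted. Fallen survival genes numbered 0 after quantile normalization, after median centring and with the lowest 50% left out, and fallen death genes 1 after median centring. With 1 pair left out, risen survival genes ranged from 1 to 2, fallen survival genes from 0 to 1 and fallen death genes from 1 to 2, while 3 death genes rose in each such fit. Those fits rest on 2 pairs and lean on the variance that eBayes borrows. Without the replicate block 11430 probe sets were called against 11471 with it, and no member's call changed. Among genes named from the lists, Bnip3l reversed without pair 1 (from -0.32 to 0.30 over the fits with a pair left out, passing as risen at the latter), Dcn lost its call without the block (adjusted p = 0.20), and 11 of 33 changed a call under some setting. Causes were not tested, apart from Bcl2a1, which those settings let past the filter. Bcl2, Bcl2a1 and the Bcl2l1 probe set below the filter had means under the lowest array median in both groups, which limits what their size of change can say.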

Other observations

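The probe set that reads Bax (1369122_at) is annotated to both Bax, the second pore-forming effector, and LOC681314, so its signal cannot be assigned to either. It read 387.9, 358.4 and 371.4 in static arrays 1 to 3 and 265.1, 237.8 and 244.9 under shear, with no overlap between the groups. The change was -0.55 (95% interval -0.76 to -0.34, limma adjusted p = 0.0014).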
